A study of Mus musculus with 10 samples.

Results

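Skin taken 24h after an injection of cyclophosphamide was compared with skin taken before it (0h). The comparison uses 4 of the 10 libraries of a time course, 2 at 24h and 2 at 0h, chosen by the time in the labels, and it tested 13625 of the 24331 genes in the table. All libraries were made from full-thickness back skin of wild type male C57BL/6 mice aged 7 to 8 weeks. Their back hair had been removed with wax, and the mice of the later times received 150 mg/kg cyclophosphamide intraperitoneally on day 9 after depilation. The libraries used here include no skin of mice given vehicle, and effects of the drug, of days since depilation and of time of day cannot be told apart. Whether the libraries of 1 time are from different mice is not stated, and p-values therefore reflect the spread between libraries alone, which may be technical. Libraries are called 2 and 3 at each time, as in the table.

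Cyclophosphamide is converted in the body to products that crosslink DNA. Depilation starts anagen, the growth stage of the hair follicle, in which matrix keratinocytes divide rapidly around the dermal papilla under Sonic hedgehog, Wnt and BMP signals and then differentiate into the hair shaft and the inner root sheath. DNA damage stabilises p53, a transcription factor that induces genes of cell cycle arrest and cell death, while interferons induce a separate set of antiviral genes. Full-thickness mouse back skin also holds epidermis, dermis, fat and the panniculus carnosus, a sheet of skeletal muscle below the fat.

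The unit is FPKM, the number of sequenced fragments scaled to transcript length and to the library's total, as the authors deposited it. Fold changes are differences in log2(FPKM + 1), 24h minus 0h, with the standard error (SE) of the fit, and understate the change of low genes. "Rose" and "fell" mean an adjusted p (limma, Benjamini-Hochberg over the 13625 genes, two-sided) under 0.05. The fit took all 10 libraries, so the spread behind each p and SE comes from all 5 times. A fit of 24h and 0h alone gave 244 calls by limma. Summed FPKM ranged from 862653.4 to 978549.8 over the 10 libraries, and FPKM does not give the absolute depth. Across genes, log2 values correlated at r = 0.987 between the 24h libraries, 0.988 between the 0h libraries and 0.971 to 0.981 between 24h and 0h libraries. Hair shaft keratins, keratin-associated proteins and inner root sheath genes held 23.6% and 19.98% of the summed FPKM at 24h, against 14.9% and 17.2% at 0h.

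At 24h, 452 genes (3.32% of those tested) had changed. Of these, 187 (1.37%) rose and 265 (1.94%) fell. The largest rises were those of muscle stress and differentiation genes (Ankrd1, Ankrd2, Myog), acute phase genes (Saa3, Saa2, Lcn2, Serpina3n), the B cell chemoattractant Cxcl13 and Prg4, which encodes the lubricant proteoglycan lubricin. Plac8 and Mustn1 rose by 2.27 each. The largest falls were those of the beta-defensin Defb8, Tmem233, Ppapdc3 (-2.08), the linker histone H1fx (-1.79) and genes of skeletal muscle (Actc1, Ampd1, Mylk4). In all 452 the 24h and 0h libraries did not overlap. Over all tested genes, both 24h libraries lay above both 0h libraries in 15.8% and below them in 37.2%, and the median log2 fold change was -0.10 (5th percentile -0.55, 95th percentile 0.51). An unadjusted p under 0.05 was reached by 2800 genes (20.6%). These shares over all tested genes are the background for every count of list members against 0h below. List members other than the largest changes, and Uba7, Ube2l6, Odc1 and Nrep, were picked for naming after their values were seen.

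**Figure D1:**
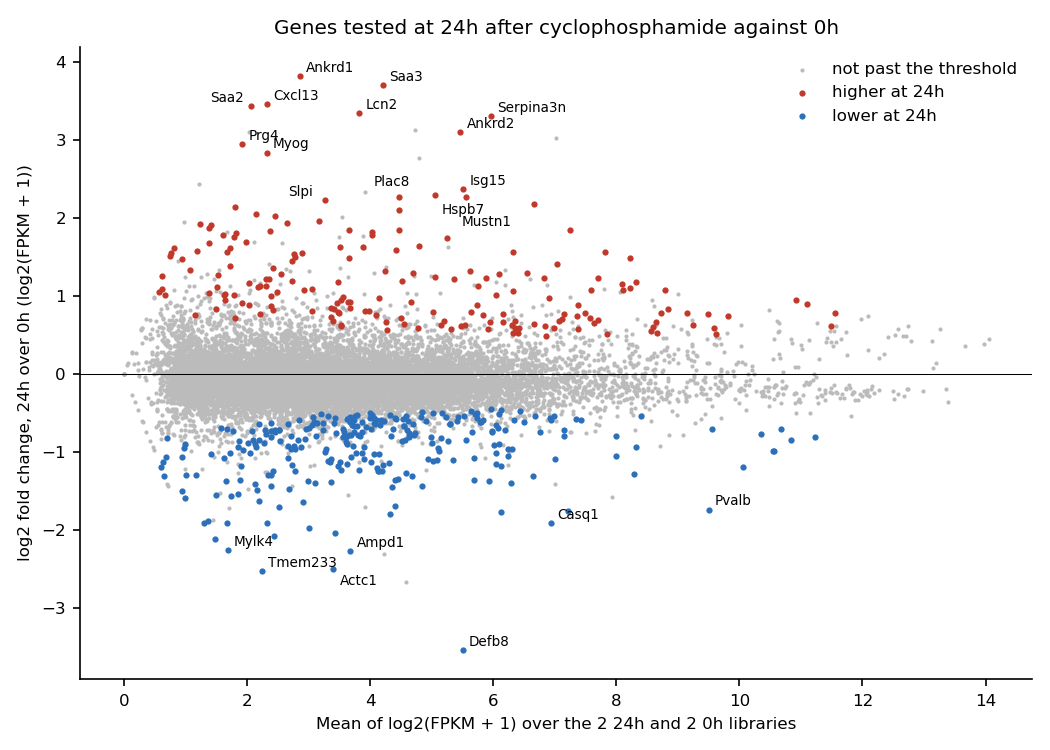
Each point is 1 of the 13625 tested genes. The horizontal axis is the mean of log2(FPKM + 1) over the 4 libraries and the vertical axis the log2 fold change, 24h over 0h. Red points are the 187 genes that rose, blue points the 265 that fell, and grey points the rest. Labelled rises reach 3.82 (Ankrd1) and labelled falls reach -3.54 (Defb8).

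The split into rises and falls moved with the scaling between libraries. Median-of-ratios scaling gave 304 genes higher and 162 lower at 24h, quantile normalization 272 and 190, and scaling without the hair genes 195 and 108. Fewer genes passed without 1 of the 4 libraries compared. Their number was 230, 79, 34 and 100 with 24h library 2, 24h library 3, 0h library 2 and 0h library 3 left out in turn. With each of the 10 libraries of the fit left out in turn, 27 genes passed every time, 13 that rose (among them Isg15, Plac8, Lbp, Eda2r, Dcxr, Myog, Ankrd1, Csrp3 and Krtap4-13) and 14 that fell (among them Odc1, Ppapdc3, Mstn, Srl, Nrep and Selenbp1). Calls outside these 27 were lost without at least 1 library.

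Genes of the interferon response rose together. Of 43 tested members of the list, 14 rose and 0 fell, against 1.37% and 1.94% of all genes, and 33 were higher and 0 lower at an unadjusted p under 0.05. The median log2 fold change was 0.88, against -0.10. The rises comprised 9 of 22 antiviral effectors, 2 of 9 sensors and transcription factors, 2 of 10 guanylate-binding proteins and related GTPases, and 1 of 2 chemokines. The number of rises was 9, 1, 1 and 4 with 24h library 2, 24h library 3, 0h library 2 and 0h library 3 left out in turn.

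In 6 of the 11 rising interferon genes with an entry in the promoter table, the 250 bases before the start of transcription held GAAA, any 2 bases and GAAA again, the core of the element that interferon regulatory factors bind. Both strands were searched and overlapping matches were kept. The same letters stood in 2.98% of all 32851 promoters of that length in the table, and in 12 of 21 interferon genes that did not pass. The promoters of Irf7, Oasl1, Oasl2, Ifih1 and Ifi47 did not hold them within this window. The stretches of 5 of the 6 genes are shown because they carry the letters these genes share. They are from RefSeq, build GRCm38.p6, read 5′ to 3′ on the strand of the gene, with the matches on either strand in capitals.
Isg15: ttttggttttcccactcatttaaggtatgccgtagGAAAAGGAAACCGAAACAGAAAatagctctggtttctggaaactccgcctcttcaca
Ifit3: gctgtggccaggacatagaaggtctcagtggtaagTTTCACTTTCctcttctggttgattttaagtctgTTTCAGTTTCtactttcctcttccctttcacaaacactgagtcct
Bst2: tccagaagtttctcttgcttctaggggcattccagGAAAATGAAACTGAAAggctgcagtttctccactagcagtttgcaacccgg
Cxcl10: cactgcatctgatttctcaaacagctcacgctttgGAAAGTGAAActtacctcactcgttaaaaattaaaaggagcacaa
Gbp3: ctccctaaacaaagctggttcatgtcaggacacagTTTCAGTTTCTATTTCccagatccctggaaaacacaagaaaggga

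The Isg15 stretch lies at chr4:156200840-156200931 on the minus strand, that of Ifit3 at chr19:34583338-34583451 on the plus strand, that of Bst2 at chr8:71537552-71537637 on the minus strand, that of Cxcl10 at chr5:92349058-92349137 on the minus strand and that of Gbp3 at chr3:142559964-142560043 on the plus strand. Isg15 held 3 overlapping matches, Ifit3, Bst2 and Gbp3 held 2 each and Cxcl10 held 1. The stretch of Ifit3b, the remaining gene of the 6, has the same letters as that of Ifit3, and FPKM of these near-identical genes is uncertain because reads can be split between them.

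Isg15, a ubiquitin-like protein that is attached to other proteins in interferon-treated cells, had 95.8 and 111 FPKM at 24h, against 19.5 and 18.8 FPKM at 0h. Its log2 fold change was 2.37 ± 0.23 (SE; adjusted p = 0.00189). The libraries of each time lay close together and the times far apart, and the call held with each of the 10 libraries left out. Irf7, a transcription factor that amplifies the type I interferon response, had 32.4 and 40.7 FPKM at 24h, against 9.69 and 13.4 FPKM at 0h (log2 fold change 1.59 ± 0.22, adjusted p = 0.00778). Usp18, the protease that takes Isg15 off its targets and dampens the receptor, had 7.29 and 7.86 FPKM at 24h, against 2.28 and 2.42 FPKM at 0h (1.36 ± 0.22, adjusted p = 0.015). In both genes the groups were well apart and the libraries of a group close together. Uba7 and Ube2l6, which encode the activating and conjugating enzymes for Isg15, were not on the list. Uba7 had 4.57 and 5.56 FPKM at 24h, against 2.69 and 2.39 FPKM at 0h (0.77 ± 0.18, adjusted p = 0.0448), and Ube2l6 11.8 and 17.0 FPKM at 24h, against 6.79 and 7.37 FPKM at 0h (0.91 ± 0.20, adjusted p = 0.0433). Usp18, Uba7 and Ube2l6 were thus higher at 24h. Uba7 and Ube2l6 passed close to the threshold and were picked after their values were seen. None of these calls held with every library left out in turn.

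Among the other effectors, Ifit3, a partner of other IFIT proteins that bind viral RNA, had 15.1 and 18.7 FPKM at 24h, against 3.80 and 3.32 FPKM at 0h (1.97 ± 0.35, adjusted p = 0.0209). Oasl2, an oligoadenylate synthetase-like protein, had 8.42 and 12.0 FPKM at 24h, against 1.39 and 2.07 FPKM at 0h (2.03 ± 0.30, adjusted p = 0.0111). Oasl1 rose from a low level, with 6.61 and 6.03 FPKM at 24h, against 0.311 and 1.10 FPKM at 0h, and its call was the closest of the 14 to the threshold. Bst2 (tetherin), which holds budding virus at the cell surface, had 72.7 and 109.7 FPKM at 24h, against 33.3 and 42.2 FPKM at 0h (1.23 ± 0.19, adjusted p = 0.0119). The chemokine Cxcl10, which draws T cells, had 10.02 and 11.2 FPKM at 24h, against 4.30 and 1.99 FPKM at 0h (1.54 ± 0.31, adjusted p = 0.0299). Zbp1, Rtp4, Ifit3b, Ifi47, Gbp3 and the RNA sensor Ifih1 were the other members that rose, by between 1.01 (Ifih1) and 1.93 (Zbp1).

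Some well-known members did not pass. Mx1 had 2.89 and 3.08 FPKM at 24h, against 0.589 and 0.678 FPKM at 0h (adjusted p = 0.0625), and Ifit1 had 5.98 and 7.72 FPKM at 24h, against 1.497 and 1.31 FPKM at 0h (adjusted p = 0.102). In both genes the 24h libraries lay above the 0h libraries, as in 15.8% of tested genes, although the test was not passed. Ifnb1 and Ifng, which encode interferon beta and gamma, were listed at 0 in all 4 libraries. Of 17 genes of antigen presentation, another interferon-responsive group, 0 passed by limma, with a median of 0.26. At an unadjusted p under 0.05 were 8, of which 5 were higher and 3 lower at 24h. The median was 0.33 over 12 genes of MHC class I and -0.51 over 5 of MHC class II.

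Genes of the acute phase and of secreted defence rose as well. Of 30 tested members, 10 rose (6 of 18 acute phase genes and 4 of 12 antimicrobial genes) and 0 fell, with a median of 0.70. Over all tested genes 1.37% rose and 1.94% fell, with a median of -0.10. At an unadjusted p under 0.05, 13 members were higher and 0 lower, against 20.6% of all tested genes in either direction. The number that rose was 9, 3, 1 and 3 with 24h library 2, 24h library 3, 0h library 2 and 0h library 3 left out in turn. Serpina3n, a secreted inhibitor of serine proteases, had 179.0 and 212 FPKM at 24h, against 14.7 and 24.0 FPKM at 0h (3.31 ± 0.40, adjusted p = 0.00501). Lbp, the plasma protein that hands lipopolysaccharide to its receptor, had 28.4 and 31.3 FPKM at 24h, against 7.40 and 8.03 FPKM at 0h (1.82 ± 0.19, adjusted p = 0.00275). For Lbp the libraries of a group lay close together, and it was the acute phase gene that passed with each library left out.

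Lcn2 (lipocalin 2), which binds bacterial iron carriers, had 32.7 and 59.1 FPKM at 24h, against 3.32 and 3.57 FPKM at 0h (3.34 ± 0.61, adjusted p = 0.0228). The serum amyloid gene Saa3 had 44.5 and 97.8 FPKM at 24h, against 3.53 and 4.86 FPKM at 0h (3.70 ± 0.84, adjusted p = 0.0447), and Saa2 had 8.74 and 18.8 FPKM at 24h, against 0 and 0.634 FPKM at 0h. In each of these the 24h libraries differed from one another about 2-fold, library 3 being the higher, and the Saa3 call was lost with quantile normalization. S100a8, which with S100a9 forms the antimicrobial complex calprotectin, had 384 and 218 FPKM at 24h, against 62.0 and 101 FPKM at 0h (1.85 ± 0.28, adjusted p = 0.0114), and S100a9 had 19.1 and 32.8 FPKM at 24h, against 8.22 and 6.74 FPKM at 0h (1.63 ± 0.33, adjusted p = 0.0306). Slpi, Serpina3m and Pglyrp1, a peptidoglycan-binding protein, rose by 2.23, 2.06 and 1.69.

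Lcn2, S100a8 and S100a9 are also the 3 members of the neutrophil list that rose, of 9 tested, against 1.37% of all tested genes. The list's summed level was 441.8 and 321 FPKM at 24h, against 79.0 and 118 FPKM at 0h, and S100a8 made most of it. The defining granule gene Mpo was listed at 0 and 0.0481 FPKM at 24h, against 0 and 0 FPKM at 0h, and Elane at 0.171 and 0.161 FPKM at 24h, against 0.547 and 0 FPKM at 0h, so both were at or near 0.

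Of 23 cytokines and chemokines, 1 rose and 0 fell, with a median of 0.19. The gene that rose was Cxcl13, with 10.03 and 24.3 FPKM at 24h, against 0.168 and 0.966 FPKM at 0h (3.46 ± 0.52, adjusted p = 0.0108). The inducers usually placed upstream of the acute phase were low and did not pass. Il1b had 1.59 and 1.43 FPKM at 24h, against 0.600 and 0.808 FPKM at 0h (adjusted p = 0.0807). Tnf had 0.308 and 0.695 FPKM at 24h, against 1.60 and 1.62 FPKM at 0h (-0.81 ± 0.21, adjusted p = 0.0726), and Il6 had an adjusted p of 0.505. Of 24 markers of macrophages and dendritic cells 0 passed by limma and 1 had an unadjusted p under 0.05, and their summed level was 650.7 and 918 FPKM at 24h, against 570.6 and 740.3 FPKM at 0h.

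Some epidermal genes of the stressed or wounded state rose. Of 26 tested stress genes, 6 rose, 0 fell and 20 did not pass, with a median of 0.77. Over all tested genes 1.37% rose and 1.94% fell, with a median of -0.10. Of 33 genes of epidermal differentiation and 13 of the basal layer 0 passed by limma, with medians of 0.19 and 0.06 and 5 and 2 genes at an unadjusted p under 0.05, and the difference between the lists was not tested. Among the differentiation genes Krt1 had 259 and 470.3 FPKM at 24h, against 235 and 302 FPKM at 0h (adjusted p = 0.537). Krt6a, a keratin of wounded epidermis that is also found in the companion layer of the follicle, had 339 and 569 FPKM at 24h, against 212 and 195 FPKM at 0h (1.11 ± 0.20, adjusted p = 0.0237). The cornified envelope genes Lce3a, Lce3d and Lce3b rose by 1.88, 1.63 and 1.62, and Lce3d had 17.6 and 20.6 FPKM at 24h, against 7.64 and 3.88 FPKM at 0h. Sprr1a, another envelope protein, had 2974 and 3040.2 FPKM at 24h, against 1896 and 1379 FPKM at 0h (0.89 ± 0.17, adjusted p = 0.0264), and S100a7a rose by 0.76.

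Krt16, the partner of Krt6a, had 78.0 and 279 FPKM at 24h, against 63.9 and 61.5 FPKM at 0h, and did not pass (adjusted p = 0.145), with the 24h libraries far apart. The 24h libraries also differed in epidermal markers as a whole. The basal list summed to 4798 and 7265 FPKM at 24h, against 5123 and 4315 FPKM at 0h, and Krt14 had 2649 and 4513 FPKM at 24h, against 2559 and 2159 FPKM at 0h. The part of this difference in the stress gene result was not tested. The count of stress genes that rose was 8, 1, 1 and 2 with 24h library 2, 24h library 3, 0h library 2 and 0h library 3 left out in turn, 2 with the 2 times alone and 1 without the filter on low values.

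Part of the p53 targets passed at 24h. Of 58 tested, 9 rose and 3 fell, against 1.37% and 1.94% of all tested genes, with a median of 0.34 against -0.10. A log2 fold change above 0 was found in 41, and 27 were higher and 4 lower at an unadjusted p under 0.05. Such a p was reached in either direction by 20.6% of all tested genes. With median-of-ratios scaling 12 rose, and with quantile normalization 13. Eda2r, a receptor of the TNF receptor family that binds ectodysplasin A2, had 5.60 and 4.06 FPKM at 24h, against 0.738 and 1.06 FPKM at 0h (1.61 ± 0.18, adjusted p = 0.00356). Dcxr, a carbonyl and xylulose reductase, had 79.0 and 78.4 FPKM at 24h, against 35.8 and 35.1 FPKM at 0h (1.13 ± 0.12, adjusted p = 0.00265). Both passed with each of the 10 libraries left out, and for Dcxr the spread within a group was under 1 FPKM.

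Gdf15, a stress-induced secreted factor, had 2.67 and 4.71 FPKM at 24h, against 0.331 and 0.0984 FPKM at 0h (1.92 ± 0.27, adjusted p = 0.00803). Mgmt, the enzyme that removes alkyl groups from guanine in DNA, had 19.1 and 21.5 FPKM at 24h, against 8.52 and 4.98 FPKM at 0h (1.49 ± 0.25, adjusted p = 0.0175). Cpt1c and Ephx1, an epoxide hydrolase, rose by 1.55 and 1.01, and Trp53inp1, Plk3 and Btg2, an antiproliferative gene, by 0.65, 0.63 and 0.59. The members that fell were Ak1, an adenylate kinase abundant in muscle, with 48.4 and 43.2 FPKM at 24h, against 94.7 and 91.7 FPKM at 0h, Tnfrsf19, a receptor found in hair follicle cells, and Epha2, whose call was lost with each other scaling tried. The promoter letters of a p53 half-site were found in 0 of 8 rising targets with an entry and in 11 of 37 targets that did not pass, against 7.13% of all promoters of 250 bases.

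The best known targets did not pass. Cdkn1a, the cell cycle inhibitor p21, had 258 and 238 FPKM at 24h, against 191 and 189.8 FPKM at 0h (0.38 ± 0.12, adjusted p = 0.118). Mdm2, the ubiquitin ligase that limits p53, had 20.4 and 20.3 FPKM at 24h, against 13.5 and 14.9 FPKM at 0h (0.49 ± 0.12, adjusted p = 0.0625). The pro-apoptotic genes Bax and Bbc3 (Puma) had log2 fold changes of 0.37 ± 0.12 and 0.62 ± 0.24, with adjusted p of 0.126 and 0.177. In all 4 genes both 24h libraries lay above both 0h libraries, as in 15.8% of tested genes. Trp53 itself had 24.8 and 25.7 FPKM at 24h, against 38.02 and 34.6 FPKM at 0h (-0.50 ± 0.16, adjusted p = 0.125). The count of targets that rose was 5, 2, 3 and 2 with 24h library 2, 24h library 3, 0h library 2 and 0h library 3 left out in turn, and at most 1 fell in each of these 4.

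Genes of mitosis fell. Of 66 genes of G2 and mitosis, 8 fell and 0 rose, against 1.94% and 1.37% of all tested genes. The list's median was -0.60, against -0.10. At an unadjusted p under 0.05, 45 were lower and 1 higher, against 20.6% of all tested genes in either direction. Those that fell were 3 of 24 regulators and 5 of 42 genes of the spindle, kinetochore and chromosomes. Cdca8 (borealin), a subunit of the chromosomal passenger complex, had 11.7 and 9.31 FPKM at 24h, against 28.5 and 23.8 FPKM at 0h (-1.24 ± 0.15, adjusted p = 0.00501). Cks2, a small subunit of cyclin-dependent kinases, had 53.001 and 39.2 FPKM at 24h, against 107 and 102 FPKM at 0h (-1.18 ± 0.19, adjusted p = 0.0149). Mki67, the proliferation marker Ki-67, had 8.58 and 6.20 FPKM at 24h, against 15.8 and 19.5 FPKM at 0h (-1.16 ± 0.21, adjusted p = 0.0228). In all 3 genes both 24h libraries lay below both 0h libraries, as in 37.2% of tested genes, and 24h library 3 was the lowest. In bulk skin, fewer dividing cells and less RNA per cell cannot be told apart, here and for every cell type below.

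Cenpa, the centromeric histone, and Plk1, a mitotic kinase, fell (-1.27 and -1.23), and both calls were lost with median-of-ratios scaling and with quantile normalization. Cks1b (-0.70), Cdca3 (-0.81) and Kif22 (-1.02) fell too. Ccnb1 (cyclin B1) had 16.0 and 8.95 FPKM at 24h, against 17.6 and 23.3 FPKM at 0h, and did not pass (adjusted p = 0.172). The count of G2 and mitosis genes that fell was 11, 1, 0 and 1 with 24h library 2, 24h library 3, 0h library 2 and 0h library 3 left out in turn, and 13 without either 12h library. It was 4 with median-of-ratios scaling and 5 with quantile normalization.

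Few genes of DNA replication passed. Of 54 genes of S phase, 2 fell and 0 rose, a number near the background of 1.94% of tested genes that fell, with a median of -0.29 and 21 lower at an unadjusted p under 0.05. E2f2, a transcription factor of S phase entry, had 8.89 and 8.38 FPKM at 24h, against 15.8 and 15.2 FPKM at 0h (-0.78 ± 0.13, adjusted p = 0.019), and Ung, which removes uracil from DNA, had 4.57 and 7.89 FPKM at 24h, against 13.4 and 11.9 FPKM at 0h (-0.96 ± 0.22, adjusted p = 0.0473). The count was 0 without 0h library 2, 0h library 3 or 24h library 2 and 1 without most other libraries, and the Ung call was lost with each other scaling. Pcna, the clamp of the replication fork, had 103 and 122 FPKM at 24h, against 125 and 145 FPKM at 0h (adjusted p = 0.459). Of 29 genes of DNA crosslink repair 0 passed by limma and 3 had an unadjusted p under 0.05, with a median of -0.13. Outside the lists, Odc1, the first enzyme of polyamine synthesis, had 51.6 and 43.3 FPKM at 24h, against 124 and 128 FPKM at 0h (-1.39 ± 0.13, adjusted p = 0.00189).

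In the hair follicle, 4 regulators of the matrix fell, while most genes of the differentiated products rose or did not pass. Of 29 matrix regulators these 4 fell and 0 rose, against 1.94% and 1.37% of all tested genes. The list's median was -0.45, against -0.10. Lower at an unadjusted p under 0.05 were 14, against 20.6% of all tested genes in either direction. Shh (Sonic hedgehog), the signal from the matrix, had 1.75 and 1.63 FPKM at 24h, against 7.08 and 5.35 FPKM at 0h (-1.41 ± 0.23, adjusted p = 0.0158). Sox21, a transcription factor of hair shaft cuticle, had 12.1 and 9.82 FPKM at 24h, against 28.2 and 25.9 FPKM at 0h (-1.24 ± 0.15, adjusted p = 0.00501). Lef1, the partner of beta-catenin in the matrix and precortex, had 12.1 and 9.40 FPKM at 24h, against 23.5 and 22.2 FPKM at 0h (-1.03 ± 0.16, adjusted p = 0.0115). In each of the 3 genes both 24h libraries were well below both 0h libraries. Both lay below in 37.2% of all tested genes. Trps1, a zinc-finger repressor of the dermal papilla and matrix, had 2.79 and 2.81 FPKM at 24h, against 4.94 and 6.09 FPKM at 0h (-0.77 ± 0.14, adjusted p = 0.0246).

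In the pathways around them, the calls were all falls. Over all tested genes 1.94% fell and 1.37% rose, with a median of -0.10. Of 15 Hedgehog genes 3 fell, among them Shh, and 0 rose, with a median of -0.33. Ptch1, a receptor and also a target of the pathway, fell too and had 1.51 and 1.74 FPKM at 24h, against 3.41 and 4.67 FPKM at 0h (-0.93 ± 0.21, adjusted p = 0.0471). Gli1, the effector and target, did not pass (-0.91 ± 0.22, adjusted p = 0.0558). Of 52 Wnt genes 4 fell and 0 rose, with a median of -0.21. They were Lef1, the receptor Fzd10 with 20.7 and 17.4 FPKM at 24h, against 29.8 and 37.1 FPKM at 0h, the inhibitor Apcdd1 (-0.64 ± 0.12) and the coreceptor modulator Kremen2 (-1.01 ± 0.18), while the ligand Wnt10b did not pass (adjusted p = 0.0705).

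Of 15 BMP genes 0 passed by limma, and of 12 Notch genes 2 fell, the ligand Jag1 (-0.76) and the target Hey1 (-0.73). Of all tested genes 1.94% fell. Without 24h library 3, 0h library 2 or 0h library 3, the number that fell was 1, 0 and 1 among matrix regulators, 0 in each case among Hedgehog, Wnt and BMP or Notch genes, and without 24h library 2 it was 4, 1, 3 and 1 in the 4 lists. Of 21 dermal papilla genes 2 fell, Ptch1 and Trps1, which also stand on the lists above. Corin, a defining papilla gene, had 3.42 and 3.39 FPKM at 24h, against 2.55 and 3.84 FPKM at 0h (adjusted p = 0.815). Of 15 bulge stem cell genes 0 passed by limma, and 2 had an unadjusted p under 0.05.

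Genes of the hair shaft and inner root sheath rose or did not pass, apart from Krt35. Of 53 keratin-associated proteins, which fill the hair cortex and cuticle between the keratin filaments, 11 rose and 0 fell. Over all tested genes 1.37% rose and 1.94% fell. The list's median was 0.58, against -0.10. At an unadjusted p under 0.05, 36 were higher, against 20.6% of all tested genes in either direction. Krtap4-13 had 141 and 133 FPKM at 24h, against 36.0 and 57.6 FPKM at 0h (1.57 ± 0.20, adjusted p = 0.00587), and passed with each library left out. Krtap1-4 had 636 and 644 FPKM at 24h, against 283 and 325 FPKM at 0h (1.08 ± 0.19, adjusted p = 0.0197), Krtap5-1 rose by 1.08, and Krtap5-4 had 419.9 and 385 FPKM at 24h, against 159.7 and 227 FPKM at 0h (1.07 ± 0.22, adjusted p = 0.0318). These genes form families of near-identical members, so reads can be split between them and single values are uncertain. The whole list summed to 165648 and 138092 FPKM at 24h, against 99655 and 116593 FPKM at 0h. The number that rose was 1 without 24h library 2, 24h library 3 or 0h library 2, 5 without 0h library 3 or either 48h library, and 7 with quantile normalization.

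Of 15 hair shaft keratins 0 rose and 1 fell, with a median of 0.26. Krt35, an early keratin of the lower cortex and cuticle, fell, with 674 and 515 FPKM at 24h, against 978 and 942 FPKM at 0h (-0.70 ± 0.14, adjusted p = 0.0318), a call lost with median-of-ratios scaling. Krt85 had 672 and 589.8 FPKM at 24h, against 557 and 550.4 FPKM at 0h (adjusted p = 0.497), and Krt31, a later cortex keratin, had 1373 and 1024 FPKM at 24h, against 958 and 894 FPKM at 0h (adjusted p = 0.289). Of 21 genes of the inner root sheath and companion layer 3 rose and 0 fell, against 1.37% and 1.94% of all tested genes, with a median of 0.42. They were Crnn (0.79 ± 0.14), the peptidylarginine deiminase Padi1, with 94.3 and 90.1 FPKM at 24h, against 52.95 and 54.6 FPKM at 0h (0.77 ± 0.11, adjusted p = 0.00779), and Krt26 (0.56 ± 0.12). The number that rose was 1 without either 24h library, 0 without 0h library 2 and 5 without either 6h library. Of 21 melanocyte genes 1 rose, Pmel, the fibril protein of pigment granules, with 189.6 and 152 FPKM at 24h, against 104 and 108 FPKM at 0h (0.68 ± 0.14, adjusted p = 0.0318). The pigment enzymes Dct and Tyr had adjusted p of 0.0778 and 0.367.

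**Figure D2:**
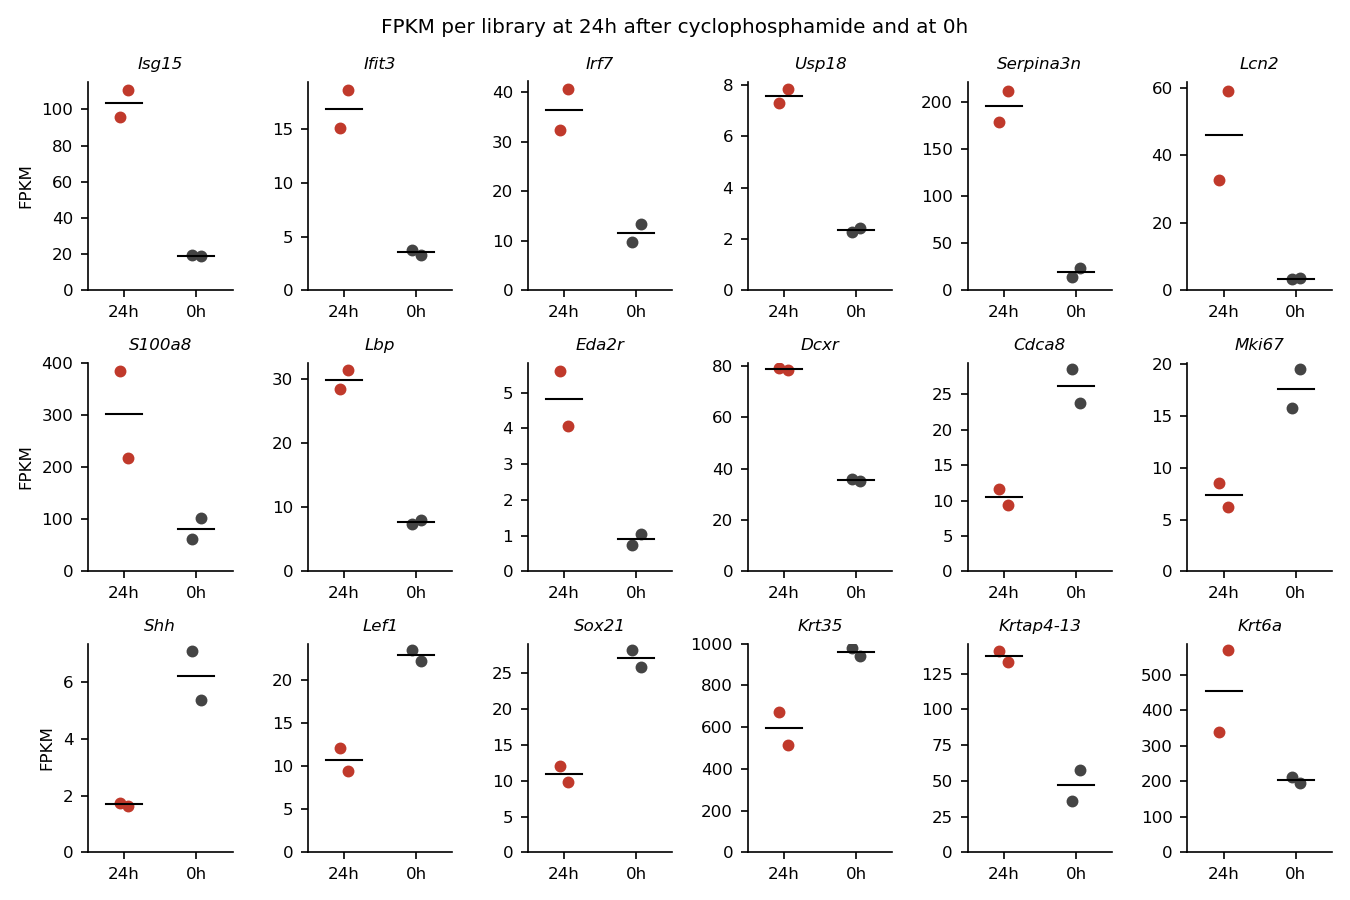
FPKM of 18 genes in each library, with 24h (red) left of 0h (grey) and a bar at the mean of 2 libraries. Every vertical axis starts at 0 and has its own scale. In each of the 18 panels the 24h and 0h libraries do not overlap, with the 24h libraries higher in the 12 interferon, acute phase, stress, p53 target and keratin-associated protein genes and lower in the 6 mitosis, matrix and early keratin genes. Over all tested genes, both 24h libraries lay above both 0h libraries in 15.8% and below them in 37.2%.

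Skeletal muscle showed falls in its contractile and calcium handling genes. Some genes of myogenic differentiation or of the response to denervation and stretch rose. Of 38 genes of the sarcomere and calcium handling, 17 fell and 0 rose, against 1.94% and 1.37% of all tested genes. The list's median was -0.82, against -0.10. At an unadjusted p under 0.05, 29 were lower, against 20.6% of all tested genes in either direction. The summed level of the list was 12820.0 and 12341 FPKM at 24h, against 23703 and 21553 FPKM at 0h, and it was already 12441 and 13398 FPKM at 6h. Casq1, the calcium-binding protein of the fast-fibre sarcoplasmic reticulum, had 65.1 and 59.2 FPKM at 24h, against 235 and 236 FPKM at 0h (-1.91 ± 0.23, adjusted p = 0.00501). Pvalb (parvalbumin), the calcium buffer of fast fibres, had 405 and 386 FPKM at 24h, against 1252 and 1396 FPKM at 0h (-1.74 ± 0.31, adjusted p = 0.021). Myl1, a myosin light chain of fast fibres, had 727 and 682.0 FPKM at 24h, against 1666 and 1553 FPKM at 0h (-1.19 ± 0.16, adjusted p = 0.00756). In these genes the 24h libraries were alike and well below the 0h libraries. Over all tested genes, both 24h libraries lay below both 0h libraries in 37.2%.

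Tcap (telethonin) and Mylk2, the myosin light chain kinase of skeletal muscle, fell (-1.29 and -1.24), as did Srl, a sarcoplasmic reticulum protein (-1.09), with its call kept in each fit without 1 library. Ckm (muscle creatine kinase), Pygm (muscle glycogen phosphorylase), Mylpf and Ttn also fell (-0.98, -1.08, -0.99 and -0.74). The myosin heavy chains did not move alike and did not pass. Myh4, of the fastest fibres, had 103 and 190.4 FPKM at 24h, against 418 and 419.8 FPKM at 0h (adjusted p = 0.136), Myh2 had 5.69 and 9.57 FPKM at 24h, against 40.7 and 16.9 FPKM at 0h (adjusted p = 0.0599), and Myh1 had 179.6 and 167 FPKM at 24h, against 81.6 and 74.2 FPKM at 0h (adjusted p = 0.156). Myh1 thus stood above and Myh4 below its 0h levels in both 24h libraries, as 15.8% and 37.2% of tested genes did. Acta1, skeletal alpha-actin, had 1800.5 and 2031 FPKM at 24h, against 3031 and 2421 FPKM at 0h (adjusted p = 0.225).

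The number of sarcomere and calcium genes that fell was 8, 2, 1 and 4 with 24h library 2, 24h library 3, 0h library 2 and 0h library 3 left out in turn, and 9 without either 48h library. It was 7 with median-of-ratios scaling, which lost the calls of Tcap, Mylk2, Pygm, Mylpf, Ckm and Ttn. Several of the largest falls of single genes were also of muscle. Ampd1, the AMP deaminase of muscle, had 4.31 and 5.41 FPKM at 24h, against 24.3 and 30.2 FPKM at 0h (-2.27 ± 0.34, adjusted p = 0.0108). Scn4b, a sodium channel subunit, had 1.59 and 1.56 FPKM at 24h, against 7.77 and 9.77 FPKM at 0h (-1.91 ± 0.15, adjusted p = 0.000723). Phkg1, the catalytic subunit of muscle phosphorylase kinase, Dhrs7c, Pgam2 (muscle phosphoglycerate mutase), Apobec2 and Mylk4 fell as well (-1.97, -2.04, -1.75, -1.76 and -2.26).

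Of 21 genes that mark myogenic differentiation or respond to denervation and stretch, 7 rose and 1 fell, with a median of 0.63. Over all tested genes 1.37% rose and 1.94% fell, with a median of -0.10. Myog (myogenin; chr1:134289989-134292548, plus strand, GRCm38), the transcription factor that drives myoblast differentiation, had 11.1 and 13.7 FPKM at 24h, against 0.864 and 0.867 FPKM at 0h (2.84 ± 0.19, adjusted p = 0.000414). Ankrd1, a titin-binding protein induced by stretch and denervation, had 34.4 and 20.2 FPKM at 24h, against 1.15 and 0.737 FPKM at 0h (3.82 ± 0.27, adjusted p = 0.000414). Csrp3, the muscle LIM protein, had 243 and 189.9 FPKM at 24h, against 57.7 and 37.5 FPKM at 0h (2.18 ± 0.26, adjusted p = 0.00501). These rises were larger than the spread of either group by a wide margin, and all 3 passed with each library left out.

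Ankrd2, a close relative of Ankrd1, had 115 and 143 FPKM at 24h, against 16.5 and 12.0 FPKM at 0h (3.10 ± 0.45, adjusted p = 0.00966). Myf6, a myogenic transcription factor of mature fibres, had 28.8 and 30.2 FPKM at 24h, against 9.04 and 6.78 FPKM at 0h (1.79 ± 0.34, adjusted p = 0.0264). Cryab, a small heat shock protein, and Lmod2, an actin nucleator of the sarcomere, rose by 1.49 and 0.63, and outside the list Hspb7, another small heat shock protein of muscle, had 72.5 and 73.8 FPKM at 24h, against 17.8 and 11.1 FPKM at 0h (2.30 ± 0.22, adjusted p = 0.00189). Actc1, the cardiac actin of developing muscle, went the other way, with 4.41 and 2.69 FPKM at 24h, against 27.2 and 21.5 FPKM at 0h (-2.49 ± 0.39, adjusted p = 0.0131). The list thus held both the largest rise and one of the largest falls among named genes.

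The acetylcholine receptor subunit Chrna1 and the myoblast factor Myod1, both usual in denervated or regenerating muscle, did not pass (adjusted p of 0.187 and 0.359). Among 15 genes of muscle atrophy, Ctsl (cathepsin L) had 491 and 516 FPKM at 24h, against 299 and 337 FPKM at 0h (0.66 ± 0.13, adjusted p = 0.0283), and Mstn (myostatin), a secreted brake on muscle growth, had 2.51 and 1.88 FPKM at 24h, against 7.43 and 11.7 FPKM at 0h (-1.70 ± 0.22, adjusted p = 0.00613). The ubiquitin ligases of atrophy, Fbxo32 (0.63 ± 0.15, adjusted p = 0.052) and Trim63 (adjusted p = 0.536), did not pass. The number of myogenic and denervation genes that rose was 5, 4, 4 and 3 with 24h library 2, 24h library 3, 0h library 2 and 0h library 3 left out in turn.

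**Figure D3:**
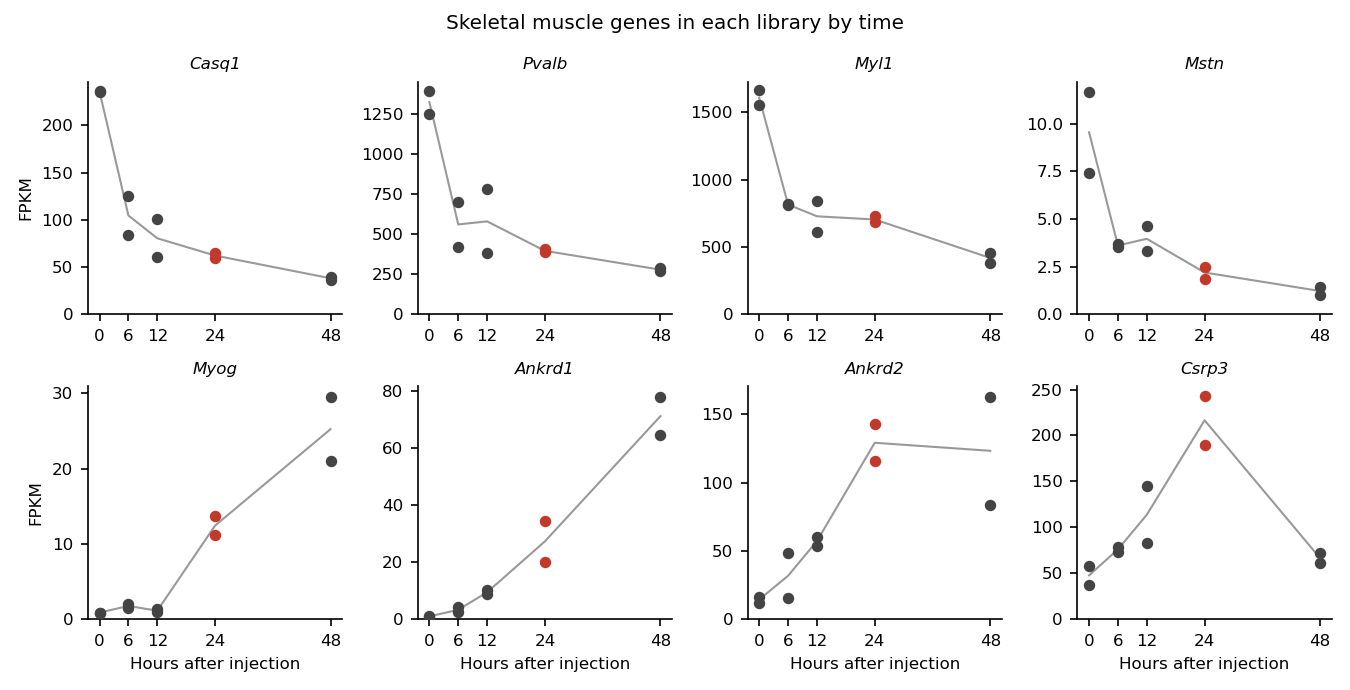
FPKM of 8 skeletal muscle genes in each library (points) by hours after the injection, with a line through the means of 2 libraries and the 24h libraries in red. Each vertical axis starts at 0. Casq1, Pvalb, Myl1 and Mstn are lower in every later library than in either 0h library, while Myog stays under 3 FPKM up to 12h and reaches 11.1 and 13.7 FPKM at 24h.

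Other cell types gave few calls. Of 40 genes of fibroblasts and matrix, 21 of endothelium, 12 of pericytes and smooth muscle, 22 of sebaceous glands, 10 of mast cells and 13 of nerve, 0 passed by limma, and 3, 3, 1, 8, 0 and 0 had an unadjusted p under 0.05. Over all tested genes 20.6% had such a p. The sebaceous gland list lay above this share and the other lists of the sentence before lay below it. The fibroblast list summed to 2312 and 3472 FPKM at 24h, against 2784 and 3038 FPKM at 0h, so the 24h libraries lay on either side of the 0h libraries. Of 30 adipocyte genes 2 fell, the adrenergic receptor Adrb3, with 3.85 and 3.60 FPKM at 24h, against 7.73 and 8.73 FPKM at 0h (-0.96 ± 0.22, adjusted p = 0.0433), and the glucose transporter Slc2a4 (-0.74 ± 0.17, adjusted p = 0.0496), which muscle also expresses. The count was 0 without any 1 library of 0h, 12h or 24h and 1 without any 1 of 6h or 48h, while the defining gene Adipoq had 46.9 and 80.9 FPKM at 24h, against 65.2 and 110.0 FPKM at 0h (adjusted p = 0.565). Of 8 lymphocyte genes above the filter 0 passed by limma and 2 had an unadjusted p under 0.05, with a median of -0.45, and Cd3e had 1.52 and 1.02 FPKM at 24h, against 2.40 and 1.44 FPKM at 0h. Red blood cell genes summed to 563 and 103 FPKM at 24h, against 137 and 249 FPKM at 0h, with library 2 the highest of the 4.

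General stress and housekeeping lists gave few calls. Of 26 NRF2 target genes, 18 clock genes, 23 immediate-early genes and 34 proteasome genes 0 passed by limma, and 3, 1, 3 and 0 had an unadjusted p under 0.05. Over all tested genes 20.6% had such a p. Of 30 genes of the ATF4 and unfolded protein responses 1 rose, Chac1, which degrades glutathione, with 239 and 212 FPKM at 24h, against 115 and 128 FPKM at 0h (0.89 ± 0.16, adjusted p = 0.0241). Of 18 glucocorticoid-responsive genes 1 rose, Lcn2, which is named above, and Fkbp5 did not pass (adjusted p = 0.485). Of 81 cytosolic ribosomal proteins 1 fell, Rpl3l, the form found in muscle, with 24.9 and 22.8 FPKM at 24h, against 50.6 and 46.0 FPKM at 0h (-0.99 ± 0.14, adjusted p = 0.01). Of the 81, 80 had a log2 fold change below 0, with a median of -0.23 against -0.10 over all tested genes, and 8 were lower at an unadjusted p under 0.05. Of 76 nuclear genes of oxidative phosphorylation 73 were below 0, with a median of -0.24, and 17 were lower and 1 higher at an unadjusted p under 0.05. The 1 that passed rose, Cox6b2, a subunit of cytochrome oxidase, with 37.4 and 30.7 FPKM at 24h, against 16.0 and 12.7 FPKM at 0h (1.19 ± 0.21, adjusted p = 0.0222), a call lost without any 1 library of 24h or 0h. With median-of-ratios scaling the medians of these lists were -0.12 and -0.14, against -0.0056 over all tested genes.

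Other genes named whatever their values did not pass. Of the stress and clock genes, Hmox1 (heme oxygenase) had 152 and 201 FPKM at 24h, against 101 and 98.7 FPKM at 0h (adjusted p = 0.111), Nqo1 had an adjusted p of 0.786, and the clock genes Dbp and Per2 had 0.134 and 0.657. The fibroblast markers Col1a1 and Pdgfra had adjusted p of 0.649 and 0.185, the endothelial markers Pecam1 and Cdh5 0.240 and 0.882, the macrophage markers Cd68 and Csf1r 0.263 and 0.850, and the mast cell proteases Cma1 and Cpa3 0.497 and 0.935. The adipocyte gene Plin1 had an adjusted p of 0.630, and the red cell gene Alas2 0.620. In the follicle, Lgr5 of the bulge had 6.87 and 6.99 FPKM at 24h, against 6.27 and 8.08 FPKM at 0h (adjusted p = 0.922), and Rspo3 of the papilla 1.80 and 2.30 FPKM at 24h, against 1.98 and 2.12 FPKM at 0h (adjusted p = 0.997). Krt71 of the inner root sheath and the pigment gene Tyrp1 had adjusted p of 0.177 and 0.0673. The B cell gene Cd79a was under the filter in all 4 libraries, the highest at 0.875 FPKM.

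**Figure D4:**
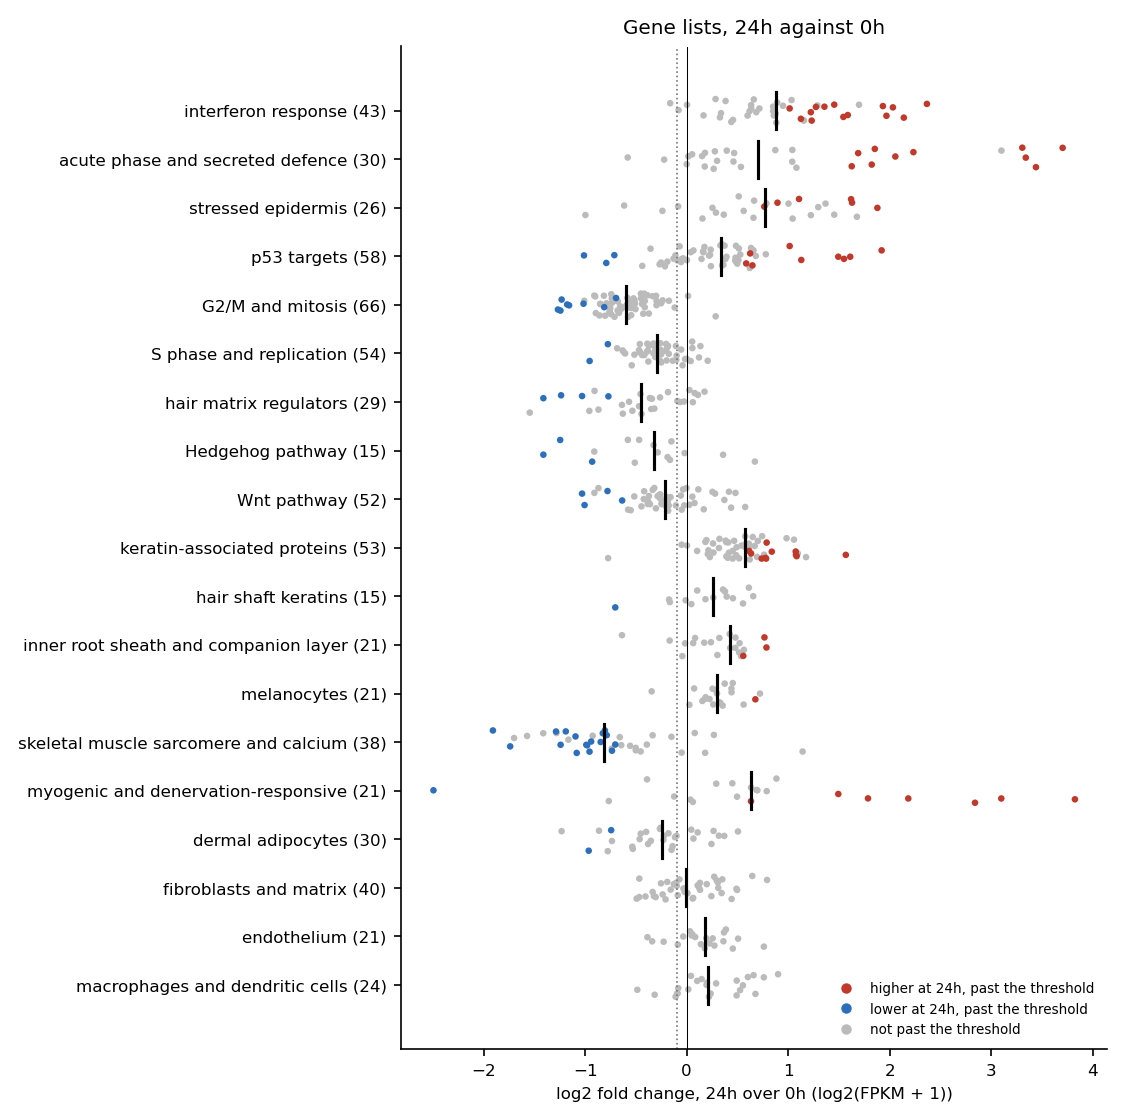
Each point is a tested gene of the list named at the left (number tested in brackets), placed by its log2 fold change, 24h over 0h. Red points rose, blue points fell and grey points did not pass. Black bars are list medians and the dotted line is the median of all tested genes (-0.10). The lists with the most members past the threshold are skeletal muscle sarcomere and calcium (17 fell) and interferon response (14 rose).

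The libraries on either side in time place the 24h levels within the series. These comparisons use the same 24h libraries as the comparison with 0h, so each is given by its own values. Against 12h, 3 genes (0.022%) were higher at 24h and 0 were lower by limma, although 733 higher (5.38%) and 616 lower genes (4.52%), 9.9% in all, had an unadjusted p under 0.05. Myog had 11.1 and 13.7 FPKM at 24h, against 1.28 and 0.948 FPKM at 12h (2.66 ± 0.19, adjusted p = 0.001). Dusp13, a phosphatase of muscle and testis, had 16.1 and 15.4 FPKM at 24h, against 5.71 and 6.29 FPKM at 12h (1.26 ± 0.12, adjusted p = 0.00687), and Tcf15, a transcription factor of the embryonic somite, had 5.90 and 6.34 FPKM at 24h, against 1.46 and 1.39 FPKM at 12h (1.55 ± 0.18, adjusted p = 0.0337). The count was 1 without 24h library 3 or 12h library 2, and 7 without 24h library 2 or either 6h library.

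Against 48h, 308 genes (2.26%) differed, 142 (1.04%) higher at 24h and 166 (1.22%) lower, and 770 (5.65%) were higher and 1798 (13.2%) lower at an unadjusted p under 0.05 (18.8% in all). Of 43 interferon genes, 5 were higher at 24h and 0 lower, with a median of 0.64. Isg15 had 95.8 and 111 FPKM at 24h, against 20.3 and 29.5 FPKM at 48h (2.03 ± 0.23, adjusted p = 0.00649), and Oas2 had 4.36 and 5.41 FPKM at 24h, against 0.978 and 1.12 FPKM at 48h (1.52 ± 0.27, adjusted p = 0.0235). The 48h libraries were close to the 0h level of Isg15. Its mean FPKM over 2 libraries was 19.2 before the injection, 29.2 after 6h, 48.6 after 12h, 103 after 24h and 24.9 after 48h.

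Genes of the inner root sheath were higher at 24h for 10 of the 21 tested. Of this list with the companion layer, 0 were lower at 24h than at 48h, and the median was 0.73. Krt74, which the mouse annotation lists as a transcribed pseudogene, had 22.6 and 20.1 FPKM at 24h, against 3.87 and 2.37 FPKM at 48h (2.46 ± 0.18, adjusted p = 0.000529). Krt25, found in all inner root sheath layers, had 8611 and 7833 FPKM at 24h, against 3479 and 2680 FPKM at 48h (1.43 ± 0.16, adjusted p = 0.00649). Of 15 hair shaft keratins 3 were higher at 24h, among them Krt35, with 674 and 515 FPKM at 24h, against 282 and 258 FPKM at 48h (1.12 ± 0.14, adjusted p = 0.00819). Of 53 keratin-associated proteins 0 were higher and 1 was lower at 24h, with a median of 0.02, and 2 were higher and 8 lower at an unadjusted p under 0.05. Of 29 matrix regulators 3 were higher at 24h, Lef1, Sp6 and Wnt10b, by 0.75, 0.98 and 1.04. By mean FPKM, Krt35 and Lef1 had their lowest levels at 48h, not at 24h.

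Genes of division were lower at 24h than at 48h. Of 66 genes of G2 and mitosis 10 were lower and 0 higher, with a median of -0.76, and of 54 genes of S phase 10 were lower and 0 higher, with a median of -0.55. At an unadjusted p under 0.05, 57 and 39 of them were lower, against 13.2% of all tested genes. In the epidermis, Krt10, the keratin of suprabasal cells, had 668 and 909 FPKM at 24h, against 1709 and 1719 FPKM at 48h (-1.14 ± 0.20, adjusted p = 0.0231), and Krt5, of the basal layer, had 1487 and 2045 FPKM at 24h, against 2894 and 3132 FPKM at 48h (-0.79 ± 0.17, adjusted p = 0.0468). Of 33 differentiation genes 5 were lower and 1 higher at 24h. In muscle, Csrp3 was higher at 24h, with 243 and 189.9 FPKM, against 71.5 and 61.3 FPKM at 48h (1.68 ± 0.26, adjusted p = 0.0164), while Myog (-0.95 ± 0.19) and Ankrd1 (-1.39 ± 0.27) were lower at 24h than at 48h.

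The comparison with 48h rests on each of its libraries, and the count of 308 was 30 and 191 with 24h library 2 and 3 left out in turn, 65 and 18 with 48h library 2 and 3, 189 and 190 with 0h library 2 and 3, and 0 in a fit of these 2 times alone. Between the 10 fits without 1 library, the number higher at 24h was from 1 to 10 for interferon genes and from 2 to 10 for the inner root sheath, and the number lower was from 0 to 21 for G2 and mitosis and from 0 to 13 for S phase. Scaling moved the split, to 196 higher and 85 lower with median-of-ratios scaling and 220 higher and 113 lower with quantile normalization, while scaling without the hair genes gave 97 higher and 101 lower.

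**Figure D5:**
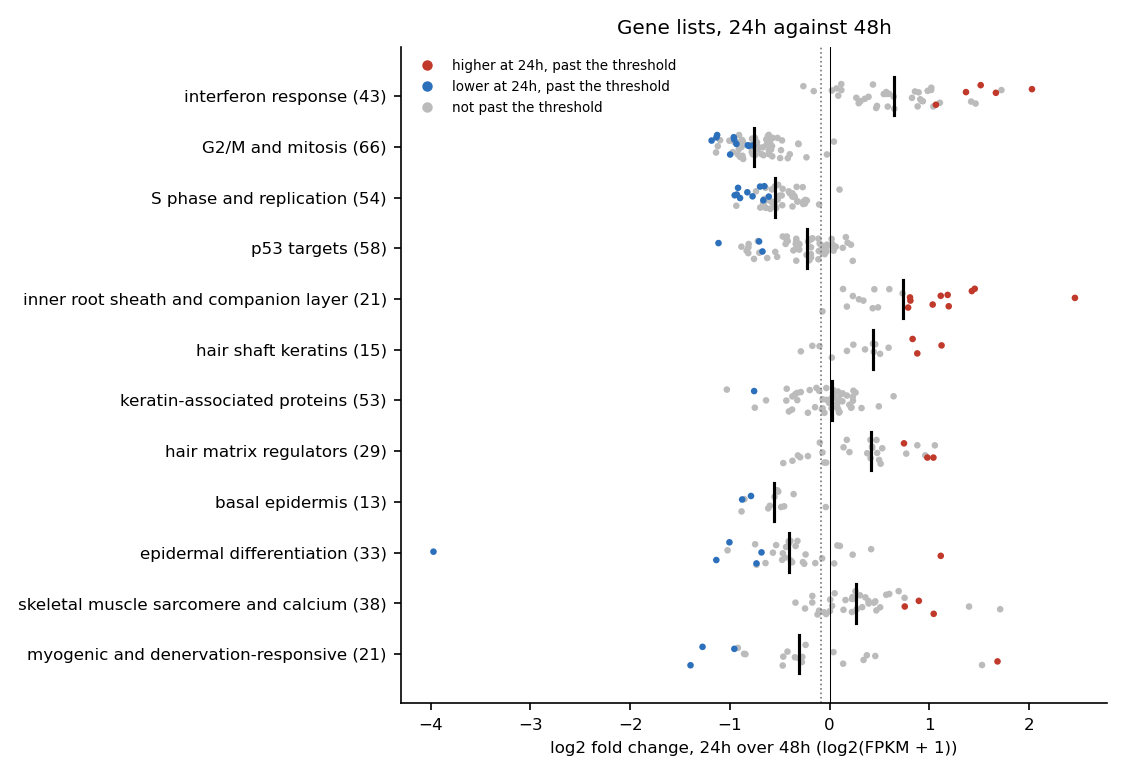
Each point is a tested gene of the list named at the left (number tested in brackets), placed by its log2 fold change, 24h over 48h. Red points were higher at 24h, blue points lower, and grey points did not pass. Black bars are list medians and the dotted line is the median of all tested genes. Inner root sheath genes lie mostly to the right (10 higher at 24h), and genes of G2 and mitosis to the left (10 lower at 24h).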

How the data were processed

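RNA sequencing of 10 skin libraries was used, 2 at each of 5 times. The deposited values are FPKM per gene, as made by the authors. The header names no unit. FPKM was inferred because Cufflinks is named and the values are fractional with unequal sums. The tools named, per the submitters' processing notes, are TopHat2 2.1.1 and Cufflinks 2.2.1, with the build mm10 and no role or order. Annotation, filters and scaling: not given in the sources used here. Depth is unknown, so no counting interval is given. All 10 value columns were used, matched to their time only, since the table numbers the libraries of a time 2 and 3 and the labels 1 and 2. 27 rows whose symbol reads as a date were left out. A further 103 rows name several genes.

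A gene needed 1 FPKM or more in 2 or more libraries. Tests used limma 3.58.1 (R 4.3.3) on log2(FPKM + 1), with 1 mean per time over all 10 libraries, an intensity trend, 5 residual and a median of 4.92 prior degrees of freedom. Adjusted p-values are Benjamini-Hochberg over 13625 genes. On simulated data of 13625 genes with 200 changed, this fit for 24h against 0h recovered 91% of changes of 1 and 100% of changes of 2 on the log2 scale, with 16 false calls. The changed genes were drawn from those with a mean of at least 5 FPKM. Noise was independent between libraries, at the spread estimated by the fit, and no batch or composition effect was added. The recovery therefore does not carry over to low genes or to the real libraries. Promoters (RefSeq, GRCm38.p6) were searched in the 250 bases before the start, and 10286 tested genes matched by symbol. Gene positions are from the GENCODE annotation of GRCm38.

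The named genes are the 15 largest rises and falls against 0h past the threshold with a mean of at least 5 FPKM in the higher group, up to 4 members per list and direction, a fixed set named whatever its values (6 named genes are not analysed or not reported here), and the 8 largest rises and falls against 12h and 48h. Predicted genes and clones were left out. The members and lists were chosen with earlier results of these data known. Alternatives were a pseudocount of 0.1, no filter, a mean of at least 5 FPKM, median-of-ratios scaling, quantile normalization, scaling with 89 hair genes left out, the 2 compared times alone, a replicate block, no intensity trend, and each library left out.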

Additional observations from a re-analysis of the deposited data

Results flagged for a closer look

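The level at 24h was tested against that of the neighbouring times, with the 24h libraries shared by both comparisons. By limma, 3 genes differed between 24h and 12h. Myog, Tcf15 and Dusp13 were higher at 24h, by 2.66, 1.55 and 1.26 on the log2 scale.

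Between 24h and 48h, 308 genes differed. The largest differences among genes higher at 24h were those of Kcnk16, a potassium channel (2.71, with 16.7 and 15.5 FPKM at 24h, against 1.96 and 1.30 FPKM at 48h), Krt74 (2.46), Arg1, the arginase of the urea cycle (2.42, with 70.5 and 63.6 FPKM at 24h, against 15.8 and 8.54 FPKM at 48h), Inmt (2.08), Tubb3, a beta-tubulin (2.03), Isg15 (2.03), Selenbp1 (1.94) and Fbp1, an enzyme of gluconeogenesis (1.71). Of these, Selenbp1 was also lower at 24h than at 0h, with 70.8 and 55.9 FPKM at 24h, against 151 and 162 FPKM at 0h.

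The largest differences among genes lower at 24h were those of Krt2, a keratin of the upper epidermis (-3.97, with 5.18 and 3.05 FPKM at 24h, against 118 and 50.8 FPKM at 48h), Spink4 (-2.61), the mast cell chymase Cma2 (-1.90), Fcgbp (-1.89), Acoxl (-1.72), Adm, which encodes adrenomedullin (-1.65), Ptn, which encodes pleiotrophin (-1.43), and Ankrd1 (-1.39). With 2 libraries per time, a check for a library that stands apart from its group could not be made.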

How the results depend on the processing

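Against 0h, 452 genes had changed (187 higher, 265 lower at 24h). Without a filter on low values 179 did (71 higher, 108 lower), with the 2 compared times alone 244 (108 higher, 136 lower), with median-of-ratios scaling 304 were higher and 162 lower, and with the hair genes left out 108 were lower. Leaving out 1 library gave 34 to 596 calls, 18 to 237 higher and 16 to 359 lower. Against 12h the 3 calls became 10 with a pseudocount of 0.1, 10 with median-of-ratios scaling, 5 with the hair genes left out and 0 with the 2 times alone, and 1 to 7 with 1 library left out. Against 48h the 308 calls became 112 without a filter, 198 with the hair genes left out and 0 with the 2 times alone, and 18 to 352 with 1 library left out. The causes were not tested. A replicate block on the library numbers gave 611 calls against 0h, 42 against 12h and 507 against 48h. Deviations of same-numbered libraries correlated between -0.10 and 0.22. With 2 libraries a time, these values cannot decide whether the numbers pair the libraries. Of the 162 named changes past the threshold, 30 kept it with each library left out and 48 in every other alternative run. Of all named log2 fold changes, 12 changed sign, none past the threshold. With median-of-ratios scaling Cdh5 was at 0.0050, Csf1r at 0.016, Lgr5 at 0.059 and Rspo3 at 0.070, with quantile normalization Csf1r at 0.013, Lgr5 at 0.051 and Rspo3 at 0.036, and with the hair genes left out Csf1r at 0.0079, Lgr5 at 0.050 and Rspo3 at 0.063. With 1 library left out Corin ranged from -0.14 to 0.31, Fkbp5 from -0.025 to 0.66, Alas2 from -0.43 to 1.31, Cdh5 from -0.47 to 0.30, Col1a1 from -0.59 to 0.080, Cpa3 from -0.43 to 0.55, Csf1r from -0.25 to 0.083, Krt1 from -0.042 to 0.82, Lgr5 from -0.20 to 0.13, Nqo1 from -0.34 to 0.71, Plin1 from -0.79 to 0.086 and Rspo3 from -0.12 to 0.12. With 2 libraries a time, low genes and changes much under 1 on the log2 scale were the least firmly measured.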

Other observations

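A few genes outside the groups above also moved at 24h, and those of the next 2 sentences were picked after their values were seen. Of the homeobox genes, Hoxb9 had 5.68 and 5.01 FPKM at 24h, against 1.24 and 0.566 FPKM at 0h (log2 fold change 1.76 ± 0.21, adjusted p = 0.00501), and Hoxc9 and Hoxc10 rose by 1.11 and 1.09, while Hoxb2 fell (-1.15). Of other genes, Retnla, a product of alternatively activated macrophages, fell (-1.37), as did Cd52 (-0.86) and Hcst (-1.54), and Ly6a, Ifitm1 and Lgals9 rose by 1.15, 1.32 and 1.24.

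Single members of other lists passed. Mmp11, a matrix metalloproteinase, had 4.95 and 6.99 FPKM at 24h, against 1.88 and 2.43 FPKM at 0h (1.13 ± 0.24, adjusted p = 0.0349). Aldh1a3, which makes retinoic acid, had 13.6 and 7.27 FPKM at 24h, against 21.3 and 24.7 FPKM at 0h (-1.12 ± 0.25, adjusted p = 0.0445). Tm7sf2, of sterol synthesis, and Ank1, of the red cell skeleton and muscle, fell (-0.67 and -0.88). Of 41 replication-dependent histones 3 fell, against 1.94% of all tested genes. They were Hist1h2ah, listed at 0 in both 24h libraries, against 1.26 and 1.33 FPKM at 0h, Hist1h2ag, with 2.51 and 2.46 FPKM at 24h, against 8.12 and 6.47 FPKM at 0h, and Hist1h4i, with 22.02 and 23.4 FPKM at 24h, against 41.5 and 43.9 FPKM at 0h (-0.88 ± 0.14, adjusted p = 0.0131). The histone genes are near-identical copies, so their values are uncertain, and the number that fell was 0 without any 1 library of 24h or 0h.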
